A study of Mus musculus with 2 samples.

Results

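The circadian clock genes described here are 10 genes, of 55536 gene rows in all, chosen by name: Arntl and Clock of the positive arm, Per1, Per2, Per3, Cry1 and Cry2 of the negative arm, Nr1d1 and Nr1d2 of the second loop, and the output gene Dbp. They were measured by sequencing polyadenylated RNA of adult mouse left cerebral cortex (strain B6NCrl, C57BL/6 in another label, age 6 months), from an RNA input of 20 ng, by the Nextera method, whose transposase fragments DNA and adds adapters. The labels gave 1 untreated group of 2 libraries, numbered as biological replicates 1 and 2, 1 donor entry being shared by both, so that separate animals rest on the replicate numbers and each spread below may be technical. The labels call the tissue male in one field and give the sex as not collected in another. The labels read here carry no hour of tissue collection.

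The clock of mammalian cells is a feedback loop of transcription. CLOCK and BMAL1 (the product of Arntl) bind E-box sequences and switch on the Per and Cry genes, whose proteins return to the nucleus and repress CLOCK and BMAL1. The same pair switches on Nr1d1 and Nr1d2, which encode the repressors REV-ERB alpha and beta, and these hold down Arntl through sites shared with the ROR activators. Dbp, also an E-box target, encodes a PAR bZIP factor that binds D-box sequences in genes such as the Per genes. Outside the suprachiasmatic nucleus, the master clock of the hypothalamus, the loop also runs in cortical neurons and glia, and Arntl RNA normally peaks when Dbp, Nr1d1 and Per1 RNA are low. The data are from whole tissue, in which fewer cells of a type and less RNA per cell cannot be told apart.

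The gene tables summed to 51888490 fragments for replicate 1 and 26776276 for replicate 2, so the counting error of a gene was set mainly by replicate 2. Levels are the deposited TPM, which is per transcript length and allows genes to be compared within a library. Differences between libraries are the log2 ratio of CPM (counts scaled to library size), replicate 1 over replicate 2, after TMM scaling, with 0.5 added to each value. The 95% Clopper-Pearson interval beside it covers counting error only and is of the counts without the added 0.5. At low counts the ratio therefore lies off the middle of its interval, or outside it, as for Avp (-1.406, interval -3.165 to -1.497). With 1 library on each side no p-value was computed, and a gene counts as apart when the libraries differ at least 1.5-fold. Cortical neuron markers (Snap25, Camk2a, Neurod6 and 5 others) were all at 1 TPM or more in both libraries, with summed levels of 3490 TPM in replicate 1 and 4106 TPM in replicate 2. Of the markers of the suprachiasmatic nucleus and hypothalamus, Nms and Six6 had no fragment in either library, and the summed level of the 8 markers was 35.6 TPM in replicate 1 and 48.3 TPM in replicate 2, most of it from Vip, which cortical interneurons also express.

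All 10 clock genes were expressed above 1 TPM in both libraries, and their mean levels covered the span between 2.40 TPM for Per2 and 64.2 TPM for Dbp. The order by mean level was Dbp, Nr1d1, Cry2, Per1, Arntl, Nr1d2, Per3, Cry1, Clock and Per2. The ranges of Dbp, Nr1d1 and Cry2 overlapped, as did those of Arntl and Nr1d2, so the order within these sets is not fixed by the data, while the ranges of the other neighbours in the order did not overlap. The range of Dbp also took in values of Per1. The place of Per1 above Arntl in replicate 2, 21.1 against 20.5 TPM, rests on a Per1 transcript of 496 bases with 82.9 fragments. In a second quantification Per1 was below Arntl there, at 14.7 against 16.2 TPM. Dbp held the first place in replicate 1 and the third in replicate 2, where Cry2 held the first. Per3, Cry1, Clock and Per2 held the 4 lowest places, in that order, in both libraries.

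**Figure D1:**
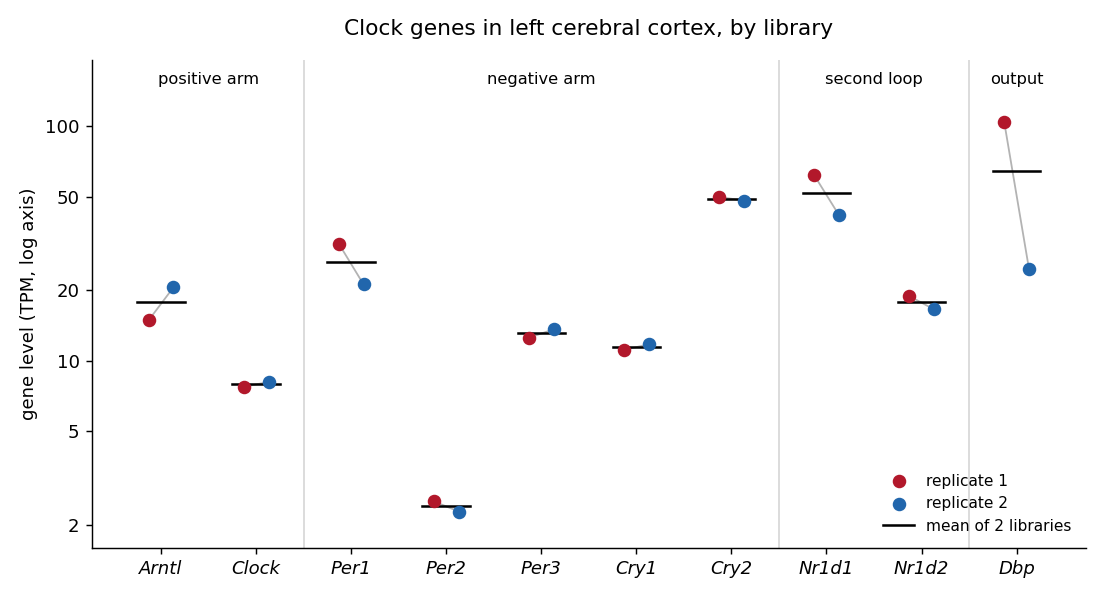
Gene level of each clock gene in TPM (log axis), with a point for each library, replicate 1 left of replicate 2, a black bar at the mean, and genes grouped by role. Dbp is at 104 TPM in replicate 1 and 24.7 TPM in replicate 2, while Cry2, Cry1, Clock, Per2 and Per3 have nearly the same level in both libraries.

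In the positive arm, Arntl was lower in replicate 1 and Clock was at nearly the same level in both libraries. Arntl (ENSMUSG00000055116.8, chr7:113207465-113314126, plus strand of GRCm38) encodes BMAL1, whose loss alone stops behavioural rhythm in mice. It had 14.9 TPM in replicate 1 and 20.5 TPM in replicate 2 (17.7 ± 3.99, mean ± SD, n = 2), from 1623 and 1146 fragments. Its log2 ratio was -0.32 (interval -0.43 to -0.21), lower in replicate 1 by more than counting error but short of 1.5-fold, and 12.7% of the tested genes had a ratio as low or lower. Clock (ENSMUSG00000029238.11, chr5:76209868-76304792, minus strand) encodes the bHLH-PAS factor that pairs with BMAL1. It had 7.74 TPM in replicate 1 and 8.12 TPM in replicate 2 (7.93 ± 0.269), with a log2 ratio of 0.07 (-0.05 to 0.19). The interval of the Clock ratio includes 0, and the sign turned with the scaling, being -0.06 under total-count scaling.

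The Per genes, which encode the PERIOD repressors, differed more from each other than between the libraries. Per1 (ENSMUSG00000020893.17, chr11:69095217-69109960, plus strand) had 31.5 TPM in replicate 1 and 21.1 TPM in replicate 2 (26.3 ± 7.31), and was the highest of the family in both. In replicate 2 that rank rests on a transcript of 496 bases, with 10.9 TPM from 82.9 fragments. The Per1 transcripts of 3507 and 4671 bases had 4.01 and 5.06 TPM there. Per3 (ENSMUSG00000028957.12, chr4:151003652-151044665, minus strand), the member that mice can lose with the mildest effect on rhythm, had 12.5 TPM in replicate 1 and 13.6 TPM in replicate 2 (13.1 ± 0.771). Per2 (ENSMUSG00000055866.9, chr1:91415982-91459324, minus strand), the member whose loss disturbs rhythm most, was the lowest of all 10 genes with 2.52 TPM in replicate 1 and 2.28 TPM in replicate 2 (2.40 ± 0.170), from 575 and 265 fragments. Per1 was thus the only Per gene past 1.5-fold, with 3064 fragments in replicate 1 and 896 in replicate 2 and a log2 ratio of 0.94 (0.84 to 1.06). As high a ratio or higher was found in 9.83% of tested genes. Per2 had a log2 ratio of 0.28 (0.08 to 0.51) and Per3 of 0.21 (0.12 to 0.31), both inside 1.5-fold, and when the deposited TPM were divided instead, Per1 fell short of 1.5-fold at 0.57 and Per3 was at -0.12.

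The Cry genes encode the cryptochromes, the main repressors of CLOCK and BMAL1, and stayed close between the libraries. Cry2 (ENSMUSG00000068742.11, chr2:92403646-92434043, minus strand) had 49.8 TPM in replicate 1 and 48.1 TPM in replicate 2 (48.9 ± 1.25). Cry1 (ENSMUSG00000020038.10, chr10:85131700-85185064, minus strand) had 11.1 TPM in replicate 1 and 11.8 TPM in replicate 2 (11.4 ± 0.453). Cry2 RNA was therefore 4.48-fold above Cry1 RNA in replicate 1 and 4.09-fold above it in replicate 2. The log2 ratio between libraries was 0.16 (0.10 to 0.22) for Cry2 and 0.07 (-0.07 to 0.21) for Cry1. Neither has a settled direction, because Cry2 was at -0.01 once trends with GC content and length were removed and Cry1 was at -0.08 by deposited TPM.

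In the second loop, Nr1d1 stood above Arntl, which it represses, in both libraries, and Nr1d2 stood above it in replicate 1 and below it in replicate 2. Nr1d1 (ENSMUSG00000020889.11, chr11:98767932-98775333, minus strand) had 61.7 TPM in replicate 1 and 41.8 TPM in replicate 2 (51.8 ± 14.1), from 6344 and 2214 fragments. Its log2 ratio was 0.69 (0.62 to 0.76), past 1.5-fold, with 14.4% of tested genes as high or higher. It fell short of 1.5-fold under total-count scaling (0.56), with GC and length trends removed (0.50) and by deposited TPM (0.56). Nr1d2 (ENSMUSG00000021775.11, chr14:18204054-18239127, minus strand) had 18.9 TPM in replicate 1 and 16.6 TPM in replicate 2 (17.7 ± 1.63) and a log2 ratio of 0.27 (0.18 to 0.36). Nr1d1 RNA exceeded Nr1d2 RNA 3.27-fold in replicate 1 and 2.52-fold in replicate 2. Exons of Nr1d1 share 263 bases, 8.55% of its exonic bases, with exons of Thra on the other strand, and reads from the 2 genes there cannot be told apart without strand. Thra, a thyroid hormone receptor gene, had 90.3 TPM in replicate 1 and 91.0 TPM in replicate 2, a log2 ratio of 0.12.

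Dbp (ENSMUSG00000059824.12, chr7:45705088-45710203, plus strand) differed most between the libraries of the 10 genes. It had 104 TPM in replicate 1 and 24.7 TPM in replicate 2 (64.2 ± 55.9), from 6553 and 647 fragments. Its log2 ratio was 2.49 (2.40 to 2.63), a 5.61-fold higher count rate in replicate 1, and 0.989% of tested genes were as high or higher. Over all alternatives in scaling, filter, quantification and correction, the ratio stayed between 2.07 and 2.51. The last exon of Dbp shares 539 bases with exons of Sphk2 on the other strand, 18.0% of the exonic bases of Dbp. Sphk2, a sphingosine kinase gene, had 1022 fragments in replicate 1 and 269 in replicate 2, a log2 ratio of 1.06. These were fewer than those of Dbp in each library. Reads from the shared bases cannot be told apart without strand, so the 2 counts do not bound the mixing.

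Across the 10 genes, 3 (Per1, Nr1d1 and Dbp) were at least 1.5-fold higher in replicate 1, beside 17.2% of all tested genes (2528 of 14656), and 0 were at least 1.5-fold lower, beside 3.22% (472). With 10 genes, a count of 3 beside that background is not read as a result about the clock genes as a set. The division of all genes moved with the scaling, to 2065 higher and 830 lower under total-count scaling and to 2342 higher and 1206 lower by deposited TPM. Total-count scaling also moved the median ratio of all tested genes to -0.09, against 0.03 with TMM, and each member moved with it. The 3 genes past 1.5-fold also had the highest GC content of the 10, at 58.8% for Per1, 56.8% for Nr1d1 and 60.5% for Dbp, where the median tested gene had 50.8%. Tested genes above 60% GC, 749 in number, had a median log2 ratio of 0.61, and 51.0% of them were at least 1.5-fold higher in replicate 1. With trends over GC content and length removed, the log2 ratios were 2.16 for Dbp, 0.66 for Per1, 0.50 for Nr1d1 and -0.33 for Arntl, so that Dbp and Per1 stayed past 1.5-fold. The part of GC content in these differences beyond that correction was not tested.

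**Figure D2:**
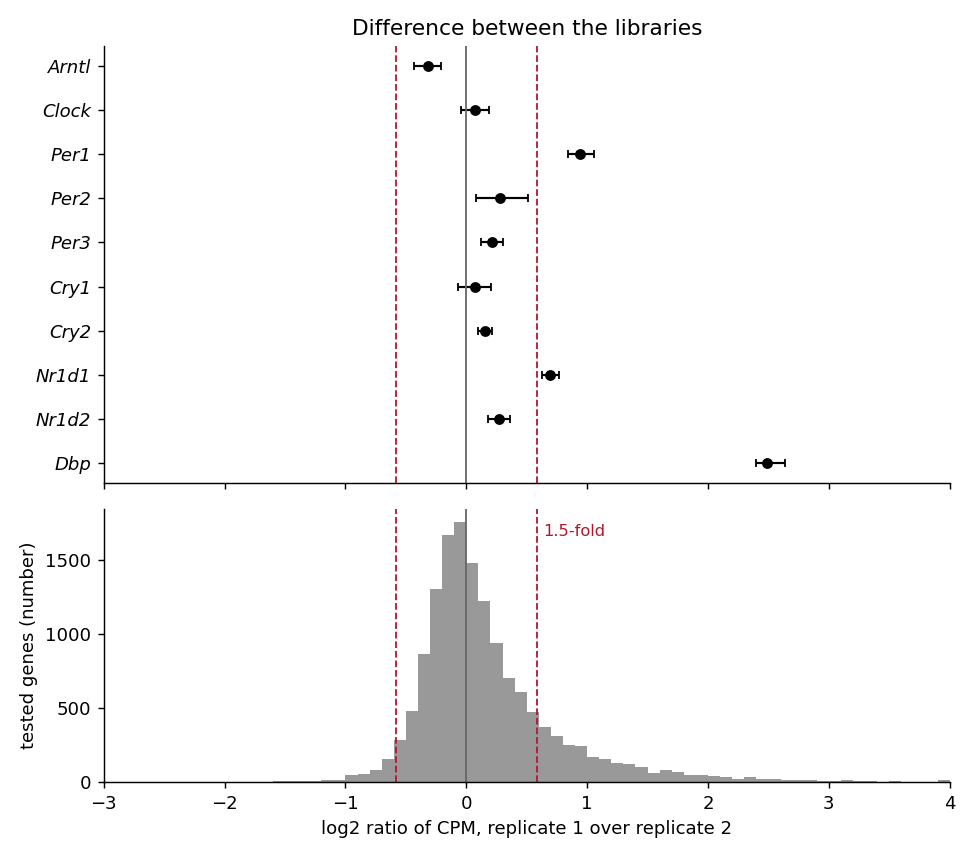
Upper panel, log2 ratio of each clock gene, replicate 1 over replicate 2, with its 95% counting interval; lower panel, number of tested genes by the same ratio (values beyond the axis are placed in the outermost bins), with dashed lines at 1.5-fold. Dbp lies at 2.49, in the sparse right tail. Nr1d1, at 0.69, lies just past the line, Per1, at 0.94, lies further past it, and Arntl, at -0.32, lies left of 0.

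Within each library the positive arm carried less RNA than the negative arm. The summed level of Arntl and Clock was 22.6 TPM in replicate 1 and 28.7 TPM in replicate 2 (25.6 ± 4.26), and that of the 5 Per and Cry genes was 107 and 96.8 TPM (102 ± 7.51). The log2 ratio of the positive over the negative arm was -2.25 in replicate 1 and -1.76 in replicate 2 (-2.002 ± 0.347), below 0 in both libraries. In other terms, the positive arm amounted to 21.1% of the negative arm in replicate 1 and to 29.6% in replicate 2. These sums set 2 genes against 5, and Cry2 alone made up 46.4% of the negative arm in replicate 1 and 49.6% in replicate 2. Per gene, the positive arm averaged 11.3 TPM in replicate 1 and 14.3 TPM in replicate 2, and the negative arm 21.5 and 19.4 TPM. On the mean of log2 levels, which gives the scarce Per2 the same weight as Cry2, the arms differed by -0.39 in replicate 1 and -0.01 in replicate 2, so that on this scale the arms were level in replicate 2. Against the Per genes alone the log2 ratio was -1.04 in replicate 1 and -0.37 in replicate 2, and against the Cry genes alone -1.43 and -1.06.

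**Figure D3:**
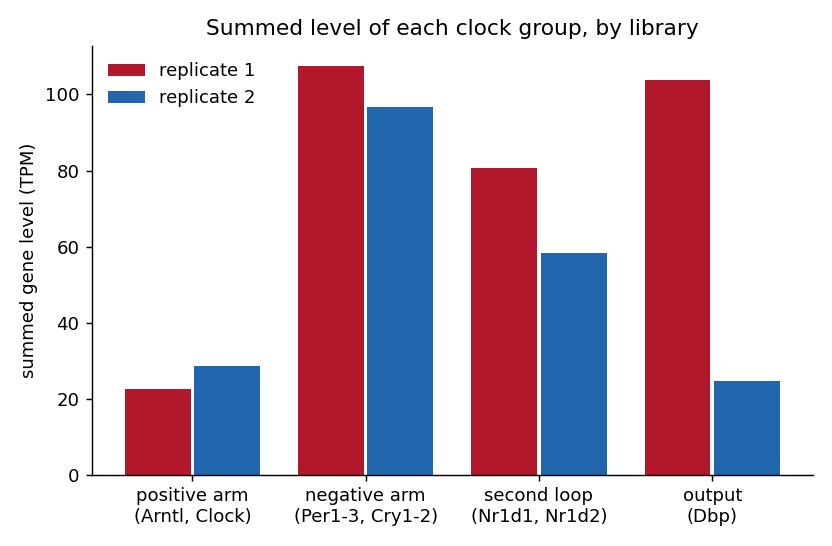
Summed gene level in TPM of the positive arm, the negative arm, the second loop and Dbp, with replicate 1 left of replicate 2. The positive arm is at 22.6 and 28.7 TPM, below the negative arm at 107 and 96.8 TPM in both libraries, and Dbp shows the widest gap between the libraries.

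Ratios within a library do not depend on how libraries are scaled to each other, and those over Arntl differed between the libraries. These ratios were not corrected for GC content, at 48.2% in Arntl against 60.5% in Dbp, 58.8% in Per1 and 56.8% in Nr1d1. The part of GC content in them was not tested. Dbp RNA exceeded Arntl RNA 6.97-fold in replicate 1 and 1.201-fold in replicate 2, a log2 ratio of 2.80 and 0.26 (1.53 ± 1.79). For Nr1d1 over Arntl the ratio was 4.15-fold in replicate 1 and 2.04-fold in replicate 2, and for Per1 over Arntl it was 2.11-fold and 1.03-fold. In the second quantification Per1 over Arntl was 2.27-fold in replicate 1 and 0.91-fold in replicate 2. Arntl had the lowest ratio between libraries of the 10 genes, so each of the other 9, Clock, Per3 and Cry2 among them, also stood higher over Arntl in replicate 1. Arntl over Clock, the pair within the positive arm, was 1.92-fold in replicate 1 and 2.53-fold in replicate 2. In the second quantification the log2 ratio of Dbp over Arntl was 2.72 in replicate 1 and 0.27 in replicate 2. With transcripts annotated as protein coding alone it was 2.77 and -0.02, so that in replicate 2 the coding transcripts of Dbp and Arntl stood at the same level.

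The annotated start regions of the members were searched for the sequences through which the loop is known to act. RefSeq start windows (GRCm38.p6, 250 bases before to 50 after each start) were found for 9 of the 10 genes, 13 windows in all; Per2 was not matched. The words searched, on both strands, were CACGTG (E-box), CACGTT (the variant E-prime box), TTATGTAA or TTACGTAA (D-box) and AGGTCA (core of the ROR and REV-ERB site). These words occur in 7.15%, 4.68%, 1.06% and 16.3% of all 32851 windows, in the order named. The 4 stretches below are shown because they hold the E-box words of Per1, Cry1 and Nr1d1 and the D-box words of Per3, with the E-box and D-box words in capitals, read 5′ to 3′ on the strand of the gene.
Per1, chr11:69098739-69098828, plus strand: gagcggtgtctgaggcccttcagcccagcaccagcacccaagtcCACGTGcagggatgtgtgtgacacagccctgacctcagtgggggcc
Cry1, chr10:85185075-85185164, minus strand: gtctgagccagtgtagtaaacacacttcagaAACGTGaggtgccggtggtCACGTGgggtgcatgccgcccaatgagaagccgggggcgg
Nr1d1, chr11:98775378-98775467, minus strand: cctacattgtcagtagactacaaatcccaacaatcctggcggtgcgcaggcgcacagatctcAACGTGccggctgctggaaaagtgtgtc
Per3, chr4:151044796-151044895, minus strand: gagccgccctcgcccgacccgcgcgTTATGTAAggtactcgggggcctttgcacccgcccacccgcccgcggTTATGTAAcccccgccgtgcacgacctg
The Per1 stretch holds CACGTG with its first base at position -166 from the start. The Cry1 stretch holds AACGTG, the other strand of CACGTT, at -79 and CACGTG at -60, and the Nr1d1 stretch holds AACGTG at -28. A CACGTT word was also present at -166 in Cry2, which makes 4 members with either E-box word in a start window. Of these 4, Per1 and Nr1d1 were past 1.5-fold between the libraries, beside 20.5% of all tested genes in either direction, and both calls are lost by deposited TPM; Cry1 and Cry2 were not past it. Per3 was the only matched member with a D-box word, held 2 times. Its log2 ratio was 0.21, and -0.12 by deposited TPM, so its direction is not settled. The part of Dbp in the Per3 level was not tested. AGGTCA was present in a window of Per1, Arntl, Clock and Nr1d2. None of the words was found in the Dbp window, which says only that these letters are not in those 300 bases.

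The transcripts of Dbp differed between the libraries in their proportions as well as their level. Dbp-201, the full coding transcript of 4 exons, held 84.9% of the gene's TPM in replicate 1 and 44.2% in replicate 2, at 88.1 and 10.9 TPM. Dbp-204, a coding transcript that lacks exon 2, held 8.61% and 34.3%, at 8.93 TPM in replicate 1 and 8.45 TPM in replicate 2. Dbp-201 was therefore 8.09-fold apart in TPM, while Dbp-204 was 1.06-fold apart. Dbp-203, which keeps 111 bases of exon 2, had 4.43 TPM in replicate 1 and 0.80 TPM in replicate 2. The 2 transcripts with exon 2 sequence summed to 92.5 TPM in replicate 1 and 11.7 TPM in replicate 2, and the 3 without it, of which Dbp-202 and Dbp-205 are annotated as retained introns, summed to 11.27 and 12.97 TPM. In the second quantification the sums were 61.5 TPM in replicate 1 and 8.82 TPM in replicate 2 with exon 2, and 8.94 and 10.7 TPM without it, so the split held in both. The forms are told apart by what follows exon 1, shown here as the last 24 bases of exon 1 in lower case and the next 24 bases of the transcript in capitals.
Dbp-201, exon 1 to exon 2: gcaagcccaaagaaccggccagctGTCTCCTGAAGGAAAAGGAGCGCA
Dbp-204, exon 1 to exon 3: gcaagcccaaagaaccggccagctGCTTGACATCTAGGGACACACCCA
Exon 2 (chr7:45706606-45707016, plus strand, GRCm38) is 411 bases long, all of them coding, and has 74.2% GC, against 61.2% in exon 1, 54.2% in exon 3 and 55.3% in exon 4. Its richest stretch of 180 bases, with 82.8% GC, is shown with G and C in capitals, because Dbp-201, the transcript that differs most between the libraries, is the one that holds it.
Dbp exon 2, chr7:45706835-45707014: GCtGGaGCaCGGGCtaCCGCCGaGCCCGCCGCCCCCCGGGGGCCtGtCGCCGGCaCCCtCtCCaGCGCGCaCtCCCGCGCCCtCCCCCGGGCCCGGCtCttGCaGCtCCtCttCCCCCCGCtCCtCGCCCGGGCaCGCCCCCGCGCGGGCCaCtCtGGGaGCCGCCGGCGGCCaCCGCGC
The transcripts with exon 2 sequence also had the higher GC content, at 61.6% for Dbp-201 and 59.4% for Dbp-203, against 58.1% for Dbp-204, 52.9% for Dbp-205 and 51.4% for Dbp-202. The part of GC content in the shift of proportions was not tested.

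Per1 and Clock were spread over several transcripts. The Per1 coding transcript of 3507 bases (ENSMUST00000101004.8) held 40.4% of the gene's TPM in replicate 1 and 19.0% in replicate 2, at 12.7 and 4.01 TPM. A Per1 transcript of 496 bases (ENSMUST00000132462.7) held 38.7% and 51.6%, at 12.2 TPM in replicate 1 and 10.9 TPM in replicate 2, but only 5.31% and 9.26% of the gene's fragments. The longest one with reads, of 4671 bases (ENSMUST00000021271.13), held 20.9% and 23.9%, at 6.58 TPM in replicate 1 and 5.06 TPM in replicate 2. Among the coding transcripts with reads, the difference in Per1 was thus widest in that of 3507 bases, at 3.17-fold. It was 1.12-fold in that of 496 bases and 1.30-fold in that of 4671 bases. A nonsense-mediated decay transcript of 2972 bases went the other way, at 0 TPM in replicate 1 and 1.16 TPM in replicate 2. Per1 was 1.92-fold apart by CPM and 1.49-fold by deposited TPM. Clock-206, a retained-intron transcript, held 39.5% of Clock TPM in replicate 1 and 48.3% in replicate 2, and the longest coding transcript, Clock-205, held 31.7% and 43.0%. Coding transcripts made up 58.3% of Clock TPM in replicate 1 and 49.5% in replicate 2, the lowest coding share of the 10 genes in both libraries. By fragments, Clock-205 was the main transcript with 53.6% of the gene in replicate 1 and 72.3% in replicate 2.

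Per3 carried a transcript found in 1 library. Its only coding transcript (ENSMUST00000103204.10, 5999 bases) held 92.9% of the gene's TPM in replicate 1 and 59.98% in replicate 2, at 11.6 and 8.16 TPM. A processed transcript of 3663 bases (ENSMUST00000138052.7), annotated without a coding frame, was listed at 0 in replicate 1 and at 39.2% and 5.33 TPM in replicate 2. The second quantification likewise listed it at 0 in replicate 1 and at 29.5% in replicate 2. In the first quantification, the near equality of Per3 at gene level, 12.5 and 13.6 TPM, thus sums a coding transcript that was higher in replicate 1 and a noncoding one seen in replicate 2. In the second, the coding transcript was closer, at 8.21 TPM in replicate 1 and 7.18 TPM in replicate 2. A retained-intron transcript of 2139 bases went the other way from the noncoding one. It was at 0.72 TPM in replicate 1 and 0.09 TPM in replicate 2, and at 1.35 and 0 TPM in the second quantification.

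The other members rested on 1 main transcript each. A single transcript held 100% of the TPM of Per2 and of Nr1d1 in both libraries. The main transcript of Cry1 held 98.6% in replicate 1 and 97.3% in replicate 2, that of Nr1d2 90.8% and 96.6%, and Arntl-201 92.3% and 92.0%. Cry2 had a coding transcript of 3976 bases (ENSMUST00000090559.11) with 80.9% in replicate 1 and 85.7% in replicate 2, and one of 2160 bases (ENSMUST00000111278.1) with 18.1% and 12.8%. In the second quantification the longer Cry2 transcript held less, at 67.6% in replicate 1 and 83.6% in replicate 2. The shorter one held 31.4% and 15.1% there. Of the 9 members with at least 5 TPM in both libraries, the share of the main transcript differed by 20 points or more in 2, Dbp and Per3, beside 10.7% of genes at that level (898 of 8418). In the second quantification the main Per3 transcript held 84.7% in replicate 1 and 69.9% in replicate 2, under 20 points apart, so that there only Dbp stayed past it.

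**Figure D4:**
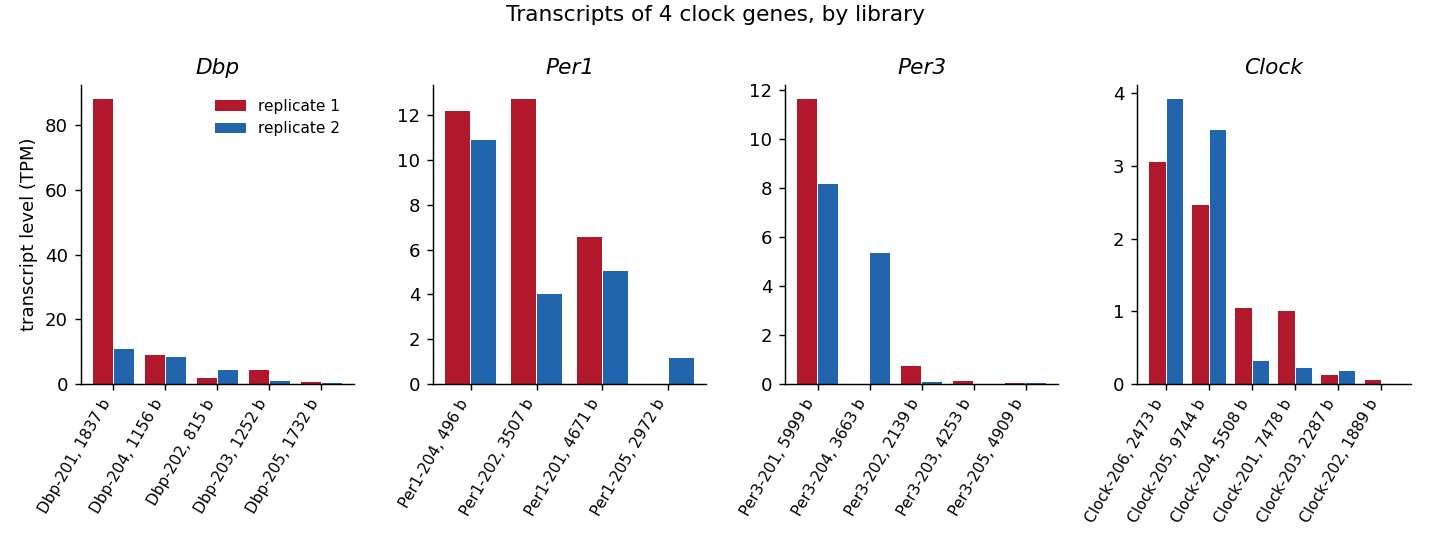
Level in TPM of each transcript (named with its length in bases, b) of Dbp, Per1, Per3 and Clock that was above 0 in either library, with replicate 1 left of replicate 2 (each panel has its own axis, starting at 0). The gap in Dbp is almost all in Dbp-201, at 88.1 and 10.9 TPM, and the Per3 transcript of 3663 bases is at 0 in replicate 1 and 5.33 TPM in replicate 2.

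Of the 3 other D-box factors, 2, Tef and Nfil3, were past 1.5-fold higher in replicate 1 and 0 were lower. The share of all tested genes was 17.2% higher and 3.22% lower. With 3 genes, the count is not read as a result about the D-box factors as a set. Tef, a second PAR bZIP activator, had 84.1 TPM in replicate 1 and 28.8 TPM in replicate 2, a log2 ratio of 1.41 (1.35 to 1.48). Hlf, the third, had 40.6 TPM in replicate 1 and 32.3 TPM in replicate 2 and a log2 ratio of 0.05 (-0.02 to 0.12), so the PAR bZIP genes did not move as one. Nfil3, which encodes the repressor that competes for D-boxes, had 8.88 TPM in replicate 1 and 5.13 TPM in replicate 2 and a log2 ratio of 0.87 (0.68 to 1.15). The median of these 3 genes was 0.87, beside 0.03 over all tested genes.

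Of the other 7 E-box factors and repressors, 2 were past 1.5-fold higher in replicate 1 and 1 was past it lower, beside 17.2% and 3.22% of all tested genes, with a median log2 ratio of -0.08. Npas2, a paralogue of Clock that can take its place in the forebrain, had 16.0 TPM in replicate 1 and 8.91 TPM in replicate 2, a log2 ratio of 0.73 (0.62 to 0.87). Ciart, which encodes the repressor CHRONO, had 18.1 TPM in replicate 1 and 10.4 TPM in replicate 2 and a log2 ratio of 0.91 (0.73 to 1.17). Timeless had 2.39 TPM in replicate 1 and 3.99 TPM in replicate 2 and a log2 ratio of -0.62 (-1.03 to -0.36). The repressors Bhlhe40 (36.0 TPM in replicate 1 and 34.1 TPM in replicate 2) and Bhlhe41 (25.6 and 31.5 TPM) stayed inside 1.5-fold, Id2 was the highest of the list at 257 and 291 TPM, and Arntl2 the lowest at 1.17 and 1.46 TPM.

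Of the ROR activators, which compete with the REV-ERB proteins on the Arntl promoter, Rorb was past 1.5-fold lower in replicate 1. Rorb had 23.3 TPM in replicate 1 and 39.0 TPM in replicate 2 and a log2 ratio of -0.59 (-0.64 to -0.55). Rora had 29.8 TPM in replicate 1 and 29.4 TPM in replicate 2 and a log2 ratio of -0.02. Of the 9 genes for clock kinases, a phosphatase subunit and ubiquitin ligases, 3 were past 1.5-fold higher in replicate 1 and 0 lower, beside the same 17.2% and 3.22%, with a median of 0.24. Csnk1e, a casein kinase that acts on PER proteins, had 51.4 TPM in replicate 1 and 25.7 TPM in replicate 2 and a log2 ratio of 0.88 (0.78 to 1.00), while its paralogue Csnk1d had 27.2 and 25.4 TPM and 0.24. Gsk3b had the lowest ratio of the list at -0.25, Ppp1ca the highest level at 309 TPM in replicate 1 and 376 TPM in replicate 2, and Fbxl21 the lowest level at 4.50 and 4.34 TPM.

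Of 11 output genes known from brain and other tissues, 10 were abundant enough to be tested, and 2 of them, Cys1 and Tef, were past 1.5-fold higher in replicate 1, 0 being lower, with a median of 0.05. The share of all tested genes past it was 17.2% higher and 3.22% lower, so the count of output genes is near the background. Cys1, a gene of the primary cilium, had 10.8 TPM in replicate 1 and 1.39 TPM in replicate 2, from 585 and 38 fragments, a log2 ratio of 2.73 (2.64 to 3.63). Wee1, a cell cycle kinase with E-boxes in its promoter, had 9.48 TPM in replicate 1 and 6.89 TPM in replicate 2 and a log2 ratio of 0.58 (0.44 to 0.75), just short of 1.5-fold. Usp2, a deubiquitinase gene, was the highest of the list with 94.47 TPM in replicate 1 and 102 TPM in replicate 2 and stayed at 0.08. Gys2, which is mainly a liver gene, had 1 fragment in each library. The other 8 tested output genes, Hlf among them, stayed inside 1.5-fold, and Tef and Hlf are counted both here and among the D-box factors.

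**Figure D5:**
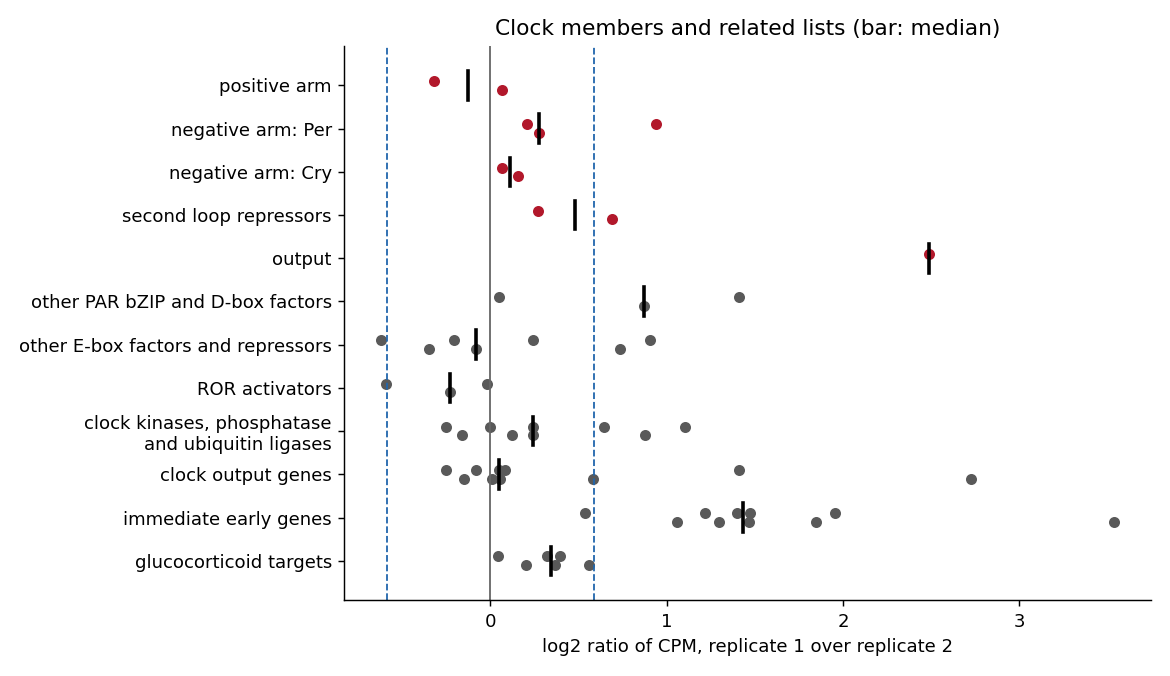
Log2 ratio of each tested gene, replicate 1 over replicate 2, for the 10 clock genes (red, by role) and for the related lists (grey), with the median of each list as a bar and dashed lines at 1.5-fold. Dbp, the only gene of its list, is at 2.49. Of the other clock lists, only that of the other D-box factors has a median past 1.5-fold. Single genes lie beyond Dbp, as Cys1 at 2.73 among the clock output genes and Egr4 at 3.54. The immediate early genes have a median of 1.43.

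Per1 is also induced by neuronal activity and by glucocorticoids, and the genes of those responses were read beside it. Immediate early genes were higher in replicate 1, with 9 of 10 past 1.5-fold and 0 lower, beside 17.2% and 3.22% of all tested genes. Their median log2 ratio was 1.43 (1.22 with GC and length trends removed). Their summed levels were 800 TPM in replicate 1 and 288 TPM in replicate 2. Egr4 had the largest ratio at 3.54 and Npas4 the smallest at 0.54. The glucocorticoid targets Fkbp5, Tsc22d3, Sgk1, Zbtb16, Mt1 and Mt2 were all inside 1.5-fold. By any amount, 6 were higher in replicate 1 and 0 lower, beside 7880 higher and 6776 lower of the 14656 tested genes. Their median was 0.34 (0.32 with GC and length trends removed), beside 0.03 over all tested genes. Tsc22d3 was the highest at 0.56, and at 0.61, past 1.5-fold, with those trends removed. The part of either response in the Per1 ratio was not tested. Among markers of cell types, 2 of 8 cortical neuron genes were past 1.5-fold higher in replicate 1 (Slc17a7 at 1.29 and Tbr1 at 1.69) and 0 lower, 1 of 4 endothelial genes was (Cdh5), and 0 of 4 were for each of astrocytes, oligodendrocytes and microglia. The share of all tested genes beside each of these marker counts, and those that follow, was 17.2% higher and 3.22% lower. Of the less abundant sources, 0 of 3 tested choroid plexus genes and 1 of 2 tested erythroid genes were past 1.5-fold higher, with summed levels of 59.9 TPM in replicate 1 and 46.6 TPM in replicate 2 and of 34.7 and 21.9 TPM. In the hypothalamic list, 3 of 8 genes were tested, and Avp, with 18 fragments in replicate 1 and 50 in replicate 2, was past 1.5-fold lower. The part of cell makeup in the Dbp and Arntl ratios was not tested.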

How the data were processed

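Polyadenylated RNA of the left cerebral cortex was measured in 2 libraries of 1 group. Gene and transcript tables with expected counts (deposited without normalization), TPM and isoform percent were made by the authors on mm10 (GRCm38) with GENCODE M21 annotation, per the deposited notes and the file headers. A second transcript table with estimated counts and TPM was also deposited by the authors. The quantifier, the aligner and the strand setting were not given in the sources used here. For count steps, expected counts were rounded. The 26345 rows that name no gene held 1.73e-05 and 3.35e-05 percent of fragments in replicates 1 and 2 and were left out.

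CPM used TMM sizes from edgeR 4.0.16 in R 4.3.3, and genes with a mean CPM of 1 or more were tested. The log2 ratio used 0.5 added to each value. DESeq2 1.42.0 size factors, total-count scaling, other added values (0.1 and 2), no filter, a filter of 5, the second table, removal of GC and length trends (lowess, fraction 0.3, statsmodels 0.14.6) and a 2-fold threshold were alternatives. Intervals came from scipy 1.17.1, in Python 3.11.15. Ratios of deposited TPM, coding transcripts alone and the background of transcript shares were added after seeing the data. The ratio and interval were tested on simulated data. All 10 members were named, with the main transcripts and, of each related list, at least the highest, the lowest and the largest ratios, except for some list genes that are not reported here. The members and lists were chosen with earlier results of these data known. Sequences are from RefSeq (GRCm38.p6) and GENCODE M21 transcripts.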

Additional observations from a re-analysis of the deposited data

How the results depend on the processing

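With 2 libraries in 1 group there is no replicate check of any difference, depth limits Per2 most (575 and 265 fragments), and strand use is unknown where exons overlap. No paired analysis was possible because the labels give 1 group only. The log2 ratio of the positive over the negative arm, -2.002 as the mean of the libraries, became -0.20 on mean log2 levels, which average the same genes, and -2.75 with Nr1d1 and Nr1d2 in the negative arm, -0.71 against the Per genes alone and -1.25 against the Cry genes alone, which sum other genes. With either library left out it was -2.25 to -1.76, and Dbp over Arntl, 1.53 in the mean, was 0.26 to 2.80. The count of members past 1.5-fold higher in replicate 1, 3 as reported, was 2 under total-count scaling and with GC and length trends removed, 1 by deposited TPM and 1 at 2-fold, where Dbp alone was left. For all genes, 1288 of the 2528 were left higher at 2-fold. The 472 lower ones became 830 under total-count scaling, 252 with 2 CPM added, 258 at a mean CPM of at least 5, 1206 by deposited TPM and 88 at 2-fold. Among ratios whose interval leaves out 0, Per3 turned to -0.12 by deposited TPM and Cry2 to -0.006 with GC and length trends removed. Cry1 and Clock, whose intervals include 0 (both 0.07), also changed sign, Cry1 to -0.06 under total-count scaling, -0.04 in the second table and -0.08 by deposited TPM, and Clock to -0.06 under total-count scaling and -0.07 by deposited TPM. The causes of the changes by deposited TPM were not tested.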
